A study of Prunus sibirica with 6 samples.

Results

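The NAC family is a plant-specific family of transcription factors, and its members were described here in flower buds of a male sterile and a male fertile Siberian apricot, Prunus sibirica. The members were the clusters that the authors' table of transcription factors and other regulators assigns to the NAC family, leaving out the clusters whose best Swiss-Prot match is NAC043, each counted once. This gave 74 of 1508 regulator clusters. A cluster is a group of assembled transcripts treated as a gene, without a position in a genome, so no chromosome or exon is given. RNA-seq was done on 3 bud samples of clone No. 1, whose buds are male sterile, and 3 of clone No. 60, whose buds are male fertile, all labelled as the stage of microspore development. Each group was thus 1 clone, and male sterility cannot be told apart from any other genetic difference between the clones. The samples were called biological replicates without a statement on separate trees, so a p-value here reflects only how much these samples varied, which may be technical. Whole buds were used, and in such bulk samples fewer cells of a type and less RNA per cell cannot be told apart.

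NAC proteins are named after NAM, ATAF and CUC, the first members described. They bind DNA through a conserved domain near the amino terminus and regulate transcription through a variable carboxy-terminal region. Some build organ boundaries, some switch on secondary walls or the differentiation of vessels and sieve elements, others act in drought, senescence and defence, and a further set is held in membranes and released by cleavage. In flowers, NAC proteins take part in the separation of organs, in wall thickening of the anther endothecium and in integument and seed development, and 1 Arabidopsis member, NAC025, is transcribed in the tapetum, the layer that feeds the microspores.

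Of the 74 NAC clusters, 73 carried a NAM domain hit, the DNA-binding domain of the family, and the exception was the cluster named NAC60. The best Swiss-Prot match was an Arabidopsis protein for 63 clusters and a rice protein for 7, and 4 had none. In 3 clusters that match was a protein of another kind, namely the glycosyltransferase UGT83A1, the glucuronosyltransferase GLCAT14A and the Elongator-associated KTI12. The best match in the NR protein collection came from a Prunus species for 63 clusters, of which 38 were from Prunus mume, 20 from peach and 5 from sweet cherry. There were 40 distinct Swiss-Prot names, and 18 of these were shared by more than 1 cluster, 48 clusters in all. The name NAC002 pools rice and Arabidopsis matches. Clusters sharing a name may be paralogs, alleles or fragments of 1 gene, and the estimated counts divide reads between similar clusters: 29 clusters had a count that was not whole within 0.005 in at least 1 library. Names follow Swiss-Prot, and the Prunus matches in NR and NT sometimes carry another NAC number: the NAC035 cluster matched a CUC3 protein, the BRN2 cluster a NAC5-like one, and Cluster-6671.20807 (NAC071) and the rice NAC022 cluster matched NAC29 types. Cluster length ran from 396 to 7013 bases with a median of 1943.5, against 2141.5 for all regulators.

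The regulator table summed to between 1242099 and 1424835 estimated counts per fertile library and between 957196 and 1122298 per sterile one. NAC clusters took 5.38% to 5.58% of these counts in fertile and 4.56% to 4.65% in sterile libraries. Without the most abundant member, the UGT83A1 cluster, the shares were 2.79% to 2.89% and 3.17% to 3.18%, the opposite direction. Over NAC clusters, the correlation of log2(FPKM + 1) across clusters, which are not independent replicates, was 0.986 to 0.995 between libraries of a clone and 0.927 to 0.939 between clones. Markers of other bud cell types also differed. The summed FPKM of 7 tapetum marker clusters (5 of 8 names matched) was 80.6 to 84.9 in fertile and 199.9 to 207.7 in sterile libraries, with 3 clusters higher, 2 lower and 2 below the low-count filter. BHLH10 alone went from 23.9 to 25.5 FPKM in fertile to 132.8 to 138.1 in sterile libraries, and the other 6 clusters summed to 56.7 to 59.6 and 67.1 to 69.7 FPKM. The 3 carpel and ovule marker clusters (DL, CRC and AGL11) summed to 35.3 to 38.9 and 74.7 to 75.9 FPKM, with 2 higher and CRC below the filter. Their part in the NAC results was not tested. The green tissue marker GLK2 was not called, with 10.3 to 11.3 FPKM in fertile and 11.7 to 14.2 in sterile libraries, and the 3 vascular clusters, 2 of them lower, summed to 49.3 to 58.8 and 54.9 to 56.6.

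NAC clusters changed in both directions in the sterile clone. Of the 74, 63 had enough counts to test, and of these 24 were higher in the sterile buds, 17 were lower and 22 did not pass an adjusted p of 0.05 in edgeR's quasi-likelihood test with Benjamini-Hochberg adjustment over all regulators. The share called was 65.1%, against 57% of all regulator clusters tested. The share higher was 38.1% against 28%, and the share lower was 27.0% against 28.9%. At least 2-fold changes were found for 6 higher clusters, against 5.72% of regulators, and for 6 lower ones, against 7.68% of regulators. Together these are 12 of 63, beside 13.4% of regulators. The remaining 29 of the 41 called clusters changed by less than 2-fold. The median log2 fold change, sterile over fertile, was 0.13 over the NAC clusters and 0.01 over all regulators tested, and the median absolute value was 0.40 against 0.31. Fold changes ran from -3.55 for the NAC090 cluster to 3.20 for a NAC029 cluster.

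**Figure D1:**
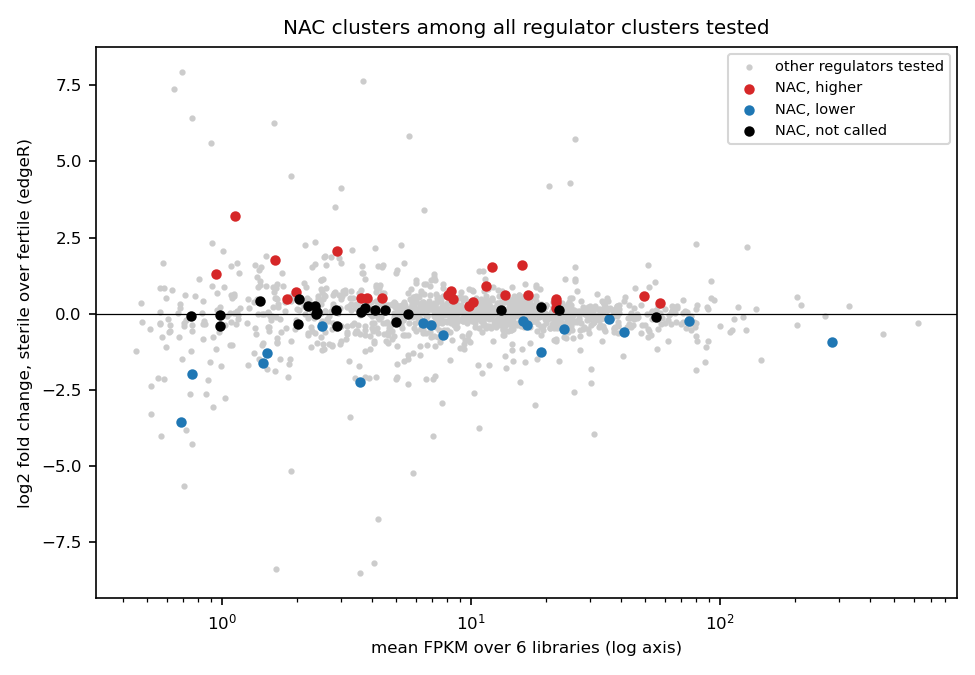
Each point is a regulator cluster tested, with its mean FPKM over the 6 libraries on a log x axis and its edgeR log2 fold change, sterile over fertile, on the y axis. The 24 NAC clusters higher in the sterile clone, the 17 lower and the 22 not called lie across the whole range of levels, between -3.55 and 3.20.

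The split between higher and lower depended on the scale of the libraries. When the libraries were scaled to the whole-library totals implied by counts and FPKM, which raised the median log2 fold change of all regulators from 0.01 to 0.15, 32 NAC clusters were higher and 12 lower, against 41.1% and 21.5% of all regulators. All 24 clusters called higher stayed higher on that scale, 12 of the 17 called lower stayed lower, and 8 that had not been called became higher. In limma on the whole FPKM table, 27 NAC clusters were higher and 10 lower of 60 tested, where 49.8% of all clusters were called, 29.1% higher and 20.7% lower. None of the 41 called clusters changed sign in any setting in which it was tested, and 31 of them, 21 higher and 10 lower, kept their call in every such setting. Among clusters with a mean of at least 10 FPKM 11 were higher, 8 lower and 4 not called, and among those from 1 to 10 FPKM 12 were higher, 7 lower and 15 not called. The 6 tested clusters under 1 FPKM gave 1 higher, 2 lower and 3 not called. Shares of all regulators by level were not computed.

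**Figure D2:**
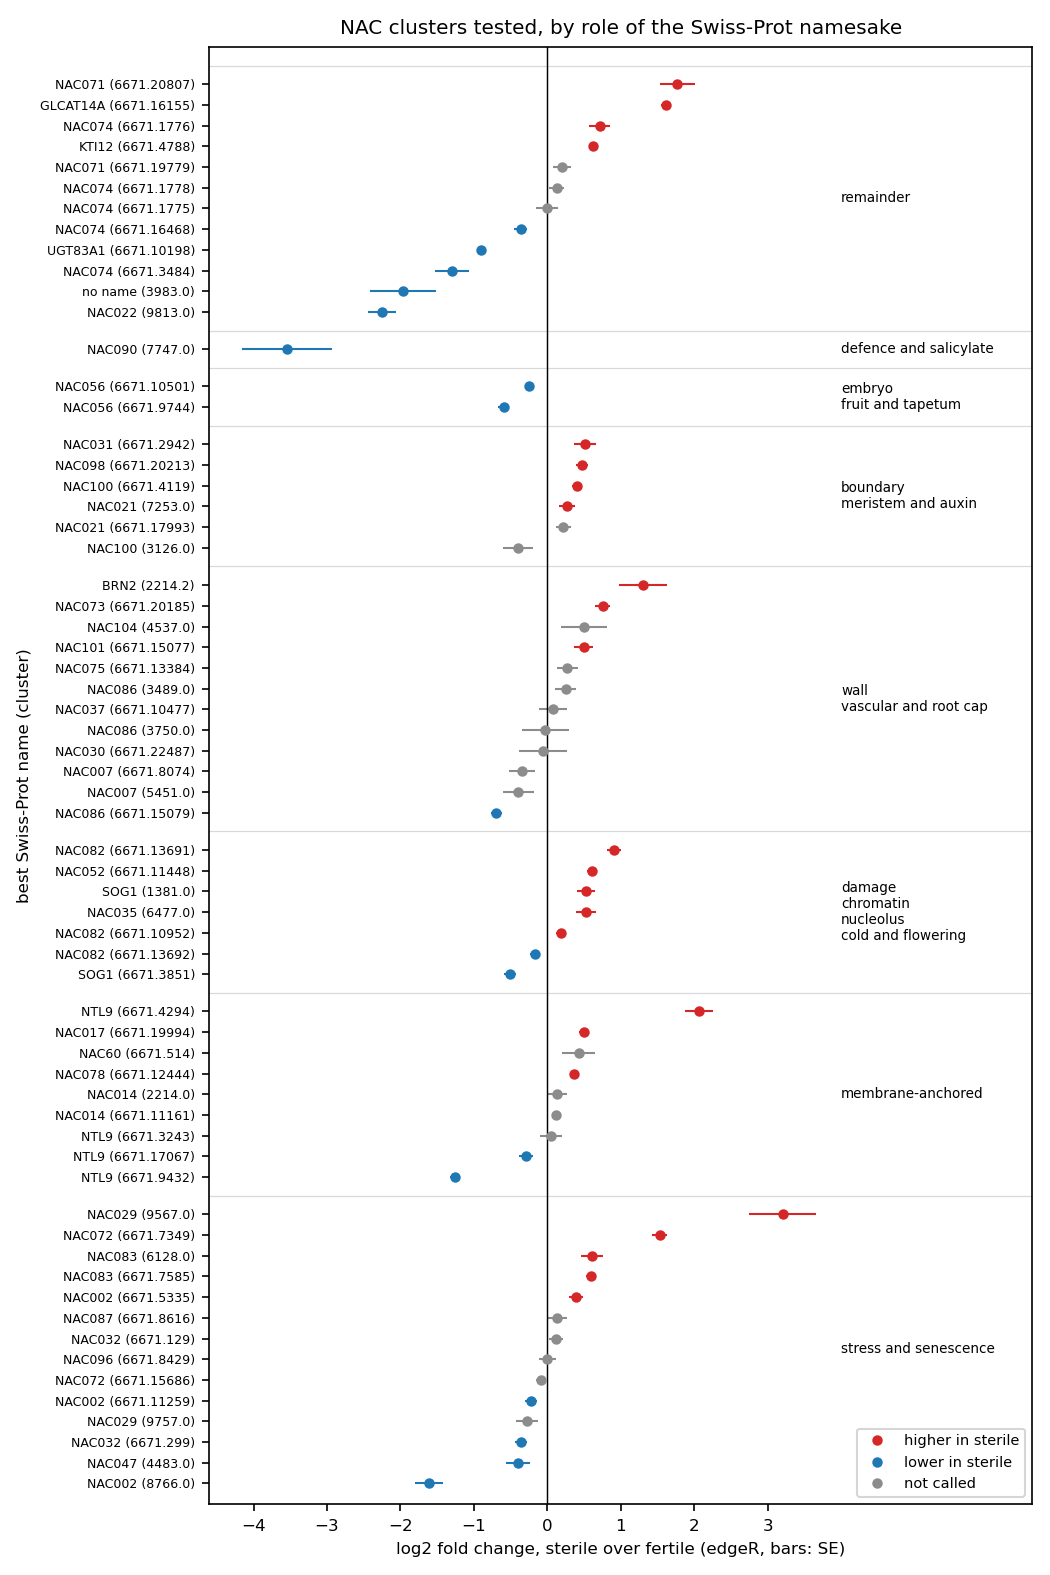
Log2 fold change, sterile over fertile, from edgeR (x axis) for the 63 NAC clusters tested, grouped by the role of the Swiss-Prot namesake; bars are standard errors and colours give the call. The group with the DNA damage and nucleolar namesakes has 5 clusters to the right and 2 to the left, and the wall and vascular group lies mostly near 0 with 8 of 12 not called. Of all regulators tested, 57% were called.

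Clusters named after regulators of stress, abscisic acid responses and senescence made the largest role group, with 17 members and 14 tested. Of these 5 were higher, 4 lower and 5 not called, and the median log2 value was 0.06 (all regulators: 28% higher, 28.9% lower). A NAC029 cluster, Cluster-9567.0, had 0.05, 0.18 and 0.37 FPKM in fertile and 2.12, 1.45 and 2.58 in sterile libraries. Its namesake in Arabidopsis, also called NAP, promotes leaf senescence, and the NR match of the cluster was an ATAF2-like protein of Prunus mume. Every sterile library lay above every fertile one, and the log2 fold change was 3.20 ± 0.46 (SE), or 9.22-fold, with an edgeR adjusted p of 1.18e-05. The counts behind it were small, 1, 4 and 7 in fertile and 29, 22 and 42 in sterile ones. The fold was 14.9 without fertile replicate 3 and 2.53 on the log2(FPKM + 1) scale of limma, which understates low clusters. The second NAC029 cluster, Cluster-9757.0, was at 5.20 ± 0.289 FPKM in fertile and 4.78 ± 0.475 in sterile buds (SD, n = 3), and its edgeR adjusted p was 0.123.

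The 2 clusters named after NAC072, the drought and abscisic acid regulator RD26 of Arabidopsis, gave different results. Cluster-6671.7349 had 5.52, 6.61 and 5.11 FPKM in fertile and 19.47, 16.95 and 18.96 in sterile libraries, so the groups stood far apart. It was 2.89-fold higher in the sterile clone (log2 fold change 1.53 ± 0.10, edgeR adjusted p 5.2e-10). Its match in the NT nucleotide collection was a NAC104-like transcript. Cluster-6671.15686, the more abundant, had 57.15, 53.63 and 51.48 FPKM in fertile and 57.74, 55.22 and 56.16 in sterile libraries. The groups overlapped, and the fitted value of -0.09 ± 0.07 (log2) did not pass the test in edgeR (adjusted p 0.27).

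NAC083 (VNI2 in Arabidopsis), which represses both vessel differentiation and leaf senescence, was named by 3 clusters, and both of those tested were higher. Cluster-6671.7585 had 38.92, 36.78 and 35.71 FPKM in fertile and 62.09, 62.05 and 62.32 in sterile libraries, with no overlap (0.59 ± 0.07 on the log2 scale, edgeR adjusted p 7.5e-07). Cluster-6128.0 went from 5.98 ± 0.965 to 10.2 ± 0.376 FPKM (SD, n = 3), up by 0.61 ± 0.15 on the log2 scale (edgeR adjusted p 0.00216). The third NAC083 cluster, with counts of 22, 11 and 19 in fertile and 6, 3 and 3 in sterile libraries, was below the low-count filter. Fitted without that filter it was called lower, the opposite direction (log2 fold change -1.82 ± 0.53, edgeR adjusted p 0.0073).

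Clusters of the ATAF type differed among themselves. The cluster matching rice NAC002 (SNAC1, a regulator of drought tolerance in rice), Cluster-8766.0, had 1.96, 2.2 and 2.25 FPKM in fertile and 0.91, 0.66 and 0.77 in sterile libraries. It was 3.04-fold lower in the sterile clone, with groups well apart (log2 fold change -1.60 ± 0.19, edgeR adjusted p 1.57e-06). Of the clusters matching Arabidopsis NAC002, known as ATAF1, Cluster-6671.5335 was higher, at 12.1 ± 0.414 against 8.27 ± 0.812 FPKM (SD, n = 3; log2 fold change 0.39 ± 0.09, edgeR adjusted p 0.00169). Cluster-6671.11259 was called lower (-0.23 ± 0.08, edgeR adjusted p 0.0213), although its FPKM overlapped between clones. That call was lost without fertile replicate 2 (-0.19, adjusted p 0.0891) and without sterile replicate 1 (-0.19, adjusted p 0.0907) in edgeR. With all libraries it was also lost in edgeR under table totals (-0.18) and implied whole-library totals (-0.09), and in limma on log2(FPKM + 1) (-0.07).

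NAC032, a stress-responsive relative of ATAF1 in Arabidopsis, was named by 2 clusters. Cluster-6671.299 had 17.42, 17.06 and 19.51 FPKM in fertile and 15.63, 16.23 and 14.91 in sterile libraries, all sterile libraries being below all fertile ones (log2 fold change -0.35 ± 0.08, edgeR adjusted p 0.000923). Cluster-6671.129 had 12 ± 0.452 and 14.5 ± 1.10 FPKM (SD, n = 3) and was not called (edgeR adjusted p 0.285). NAC047, which controls leaf movement on waterlogging in Arabidopsis, was called lower at -0.40 ± 0.16 with an edgeR adjusted p of 0.0457. Its FPKM overlapped between clones, and leaving out fertile replicate 1 (-0.25) or either of sterile replicates 1 (-0.30) and 2 (-0.40) ended the call. With all libraries the call was also lost under DESeq2 (adjusted p 0.0713), in limma, and in edgeR under table totals, implied whole-library totals and a replicate block. The NT match of the NAC047 cluster was a NAC25 transcript. NAC087 and NAC096, which in Arabidopsis act in cell death of the root cap and in dehydration responses, had log2 fold changes of 0.14 and -0.00 and were not called.

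**Figure D3:**
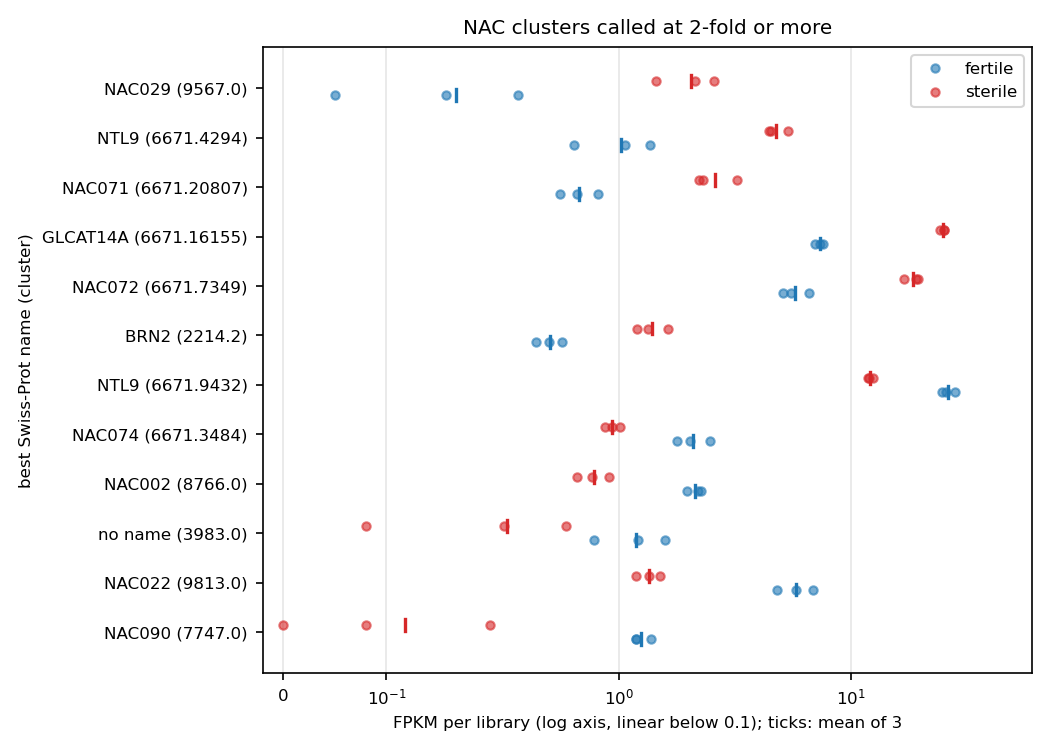
FPKM in each library (points) and group means (ticks, n = 3) for the 12 NAC clusters called with at least a 2-fold change, on a log x axis that is linear below 0.1; the fertile clone is in blue and the sterile clone in red. The groups do not overlap in any of the 12, which were picked for called changes of at least 2-fold. Of the 63 NAC clusters tested, 48 did not overlap, and the share over all regulators was not computed. The 6 higher clusters are led by NAC029 (0.05 to 0.37 against 1.45 to 2.58) and the 6 lower ones by NAC090 (1.18 to 1.37 against 0 to 0.28).

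The membrane-anchored group comprised 9 clusters, all tested, of which 3 were higher, 2 lower and 4 not called, with a median of 0.13 (all regulators: 28% higher, 28.9% lower). NTL9, a calmodulin-binding membrane-anchored NAC protein that represses a defence gene in Arabidopsis, was named by 4 clusters that ran in opposite directions. Their NT matches differed, so they need not be copies of 1 gene. The match was uncharacterized for Cluster-6671.4294, NAC62-like for Cluster-6671.17067 and NTM1-like 9 for Cluster-6671.3243. Cluster-6671.4294 had 0.64, 1.36 and 1.06 FPKM in fertile and 4.42, 5.35 and 4.53 in sterile libraries. It was 4.20-fold higher in sterile buds, without overlap (log2 fold change 2.07 ± 0.19, edgeR adjusted p 6.8e-08). Cluster-6671.9432, whose NT match was NAC91, had 24.62, 25.63 and 28.02 FPKM in fertile and 11.88, 11.84 and 12.43 in sterile libraries. It was 2.39-fold lower, again with well separated groups (log2 fold change -1.26 ± 0.07, edgeR adjusted p 3.42e-11). Cluster-6671.17067 was called lower (-0.29 ± 0.10, edgeR adjusted p 0.0164) with overlapping FPKM. Its call was lost without fertile replicate 3 (adjusted p 0.0693) and without sterile replicate 3 (adjusted p 0.0653) in edgeR. With all libraries it was also lost under implied whole-library totals (-0.15) and in limma on log2(FPKM + 1) (-0.12). The fourth, Cluster-6671.3243, was not called (0.06 ± 0.15).

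NAC017, which in Arabidopsis carries signals from stressed mitochondria to the nucleus, had 16.49, 17.2 and 17.84 FPKM in fertile and 27.65, 26.89 and 26.18 in sterile libraries. No sterile library fell within the fertile range, and the log2 fold change was 0.50 ± 0.06 (edgeR adjusted p 2.97e-06). NAC078, an Arabidopsis regulator of flavonoid synthesis under strong light, had 45.91, 47.79 and 48.92 FPKM in fertile and 68.0, 68.91 and 66.05 in sterile libraries, also without overlap (0.37 ± 0.06, edgeR adjusted p 5.18e-05). NAC014, Cluster-6671.11161, the longest cluster at 7013 bases, had 18.97, 21.23 and 21.61 FPKM in fertile and 24.37, 24.81 and 24.76 in sterile libraries. Its groups did not overlap in FPKM, but its change of 0.12 ± 0.06 (log2) missed the threshold in edgeR (adjusted p 0.109). It was called higher under table totals (0.17), implied whole-library totals (0.26) and limma on log2(FPKM + 1) (0.25), and in edgeR without fertile replicate 1 (0.083). The second NAC014 cluster (0.13 ± 0.13) and NAC60 (0.43 ± 0.22), which in Arabidopsis sits at the nuclear membrane and dampens sugar responses, were not called either. NAC60 was called higher without sterile replicate 1 (0.62, edgeR adjusted p 0.0362).

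All 7 clusters named after regulators of DNA damage, chromatin, the nucleolus, cold and flowering passed the test, 5 higher and 2 lower, where 57% of all regulators passed, 28% higher and 28.9% lower. The median log2 value of the group was 0.52. NAC082, which in Arabidopsis responds to faulty ribosome assembly in the nucleolus, was named by 3 clusters. Cluster-6671.13691 had 6.55, 8.46 and 7.36 FPKM in fertile and 16.14, 15.41 and 15.11 in sterile libraries, a clear separation with a 1.88-fold higher level (log2 fold change 0.91 ± 0.09, edgeR adjusted p 2.57e-07). Cluster-6671.10952 had 19.34, 19.68 and 19.36 FPKM in fertile and 23.45, 24.56 and 25.27 in sterile libraries, with a log2 difference of only 0.18 ± 0.06 in the fit (edgeR adjusted p 0.0213). Cluster-6671.13692, the most abundant of the 3, had 33.56, 38.24 and 36.95 FPKM in fertile and 33.96, 35.91 and 36.57 in sterile libraries, overlapping values that edgeR nevertheless called lower (-0.17 ± 0.07, adjusted p 0.0301). Neither of the small NAC082 calls was stable. The higher one was lost with all libraries under DESeq2 (adjusted p 0.0654), and also without fertile replicates 2 or 3 (0.18 and 0.17) and sterile replicates 2 or 3 (0.15 and 0.13), and the lower one was lost in edgeR under table totals (-0.13) and implied whole-library totals (-0.04), and without fertile replicates 2 or 3 (-0.15 and -0.17) and sterile replicate 1 (-0.12).

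SOG1, the Arabidopsis regulator of the DNA damage response, was named by 2 clusters that moved apart. Cluster-6671.3851 had 27.95, 27.19 and 24.26 FPKM in fertile and 21.97, 20.63 and 19.38 in sterile libraries, every sterile library being lower (log2 fold change -0.51 ± 0.08, edgeR adjusted p 2.48e-05). Cluster-1381.0, the less abundant, was higher, at 4.47 ± 0.222 against 2.79 ± 0.216 FPKM (SD, n = 3; 0.53 ± 0.13, edgeR adjusted p 0.00183). NAC052, a partner of a histone demethylase in Arabidopsis, had 11.66, 13.33 and 13.07 FPKM in fertile and 21.01, 21.08 and 21.56 in sterile libraries (0.60 ± 0.06, edgeR adjusted p 3.62e-07). NAC035, known in Arabidopsis for delaying flowering and for cold responses, went from 2.95 ± 0.497 to 4.68 ± 0.318 FPKM (SD, n = 3) and was higher too (0.52 ± 0.14, edgeR adjusted p 0.00395).

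The clusters named after regulators of walls, vascular cells and the root cap were 15, of which 3 were below the low-count filter. Of the 12 tested, 3 were higher, 1 was lower and 8 were not called, with a median of 0.16 (all regulators: 28% higher, 28.9% lower). NAC073 (SND2 in Arabidopsis, an activator of secondary wall genes) had 6.35, 5.04 and 6.11 FPKM in fertile and 10.22, 10.54 and 11.76 in sterile libraries. All sterile libraries were higher (log2 fold change 0.75 ± 0.10, edgeR adjusted p 5.91e-06). BRN2, a regulator of root cap maturation in Arabidopsis, had 0.44, 0.5 and 0.57 FPKM in fertile and 1.33, 1.2 and 1.62 in sterile libraries. At this low level it was 2.47-fold higher without overlap (1.31 ± 0.33, edgeR adjusted p 0.00253).

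Among the switches of vessel differentiation in Arabidopsis, NAC101 (VND6) was higher at 2.22 ± 0.210 against 1.42 ± 0.197 FPKM (SD, n = 3; log2 fold change 0.49 ± 0.13, edgeR adjusted p 0.00436). The NR match of this cluster was a NAC96-like protein of sweet cherry and its NT match an apple mitochondrial genome, so the name is uncertain. NAC037 (VND1) had 3.2, 3.65 and 3.11 FPKM in fertile and 4.75, 2.58 and 4.36 in sterile libraries, with overlapping groups and no call (0.07 ± 0.19, edgeR adjusted p 0.78). NAC030 (VND7) and the tested NAC007 (VND4) clusters were not called, with log2 fold changes of -0.06, -0.34 and -0.40. NAC086, which clears the nucleus from sieve elements in Arabidopsis, was named by 4 clusters. Cluster-6671.15079 had 9.74, 9.02 and 8.88 FPKM in fertile and 5.71, 6.71 and 6.4 in sterile libraries and was lower without overlap (-0.69 ± 0.08, edgeR adjusted p 7.87e-07). The other tested NAC086 clusters, at 0.25 and -0.02, were not called. Nor were NAC075 (0.27 ± 0.14) and NAC104 (0.50 ± 0.32), each of which was called higher in 3 other settings.

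Of the 7 clusters named after regulators of organ boundaries, meristems and auxin responses, 6 were tested. Of these 4 were higher, none was lower and 2 were not called, with a median of 0.33 (all regulators: 28% higher, 28.9% lower). Under implied whole-library totals 5 were higher and none lower, and without sterile replicate 1 5 were higher and 1 lower of 7 tested. Fewer were called in other settings. DESeq2 and a fold minimum of 1.2 each gave 3 higher and none lower of 6. Leaving out sterile replicate 3 gave 3 higher and none lower of 7. The CUC genes keep neighbouring organs apart in Arabidopsis flowers and shoots. NAC098 (CUC2) had 6.99, 6.17 and 6.92 FPKM in fertile and 10.67, 10.19 and 9.94 in sterile libraries, all higher than in fertile ones (log2 fold change 0.47 ± 0.09, edgeR adjusted p 0.000171). NAC031 (CUC3) went from 3.39 ± 0.557 to 5.40 ± 0.626 FPKM (SD, n = 3) and was higher by 0.52 ± 0.15 (edgeR adjusted p 0.00634).

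NAC100, cut in Arabidopsis by the same microRNA family as CUC2, was represented by Cluster-6671.4119, with 17.03, 18.41 and 18.15 FPKM in fertile and 25.73, 24.92 and 27.55 in sterile libraries. The groups did not overlap (log2 fold change 0.40 ± 0.07, edgeR adjusted p 5.86e-05), while another NAC100 cluster, Cluster-3126.0, was not called (-0.40 ± 0.20, adjusted p 0.0994) except, as lower, without sterile replicate 1 (-0.61). NAC021, which promotes lateral roots downstream of auxin in Arabidopsis, was named by 2 clusters. Cluster-7253.0 had 8.38, 7.96 and 8.95 FPKM in fertile and 10.28, 11.24 and 12.25 in sterile libraries, just past the threshold (0.27 ± 0.11, edgeR adjusted p 0.0445). That call was lost without fertile replicates 2 or 3 (0.22 and 0.30) and without sterile replicates 2 or 3 (0.24 and 0.18). With all libraries it was also lost under DESeq2 (adjusted p 0.0994) and with a replicate block in edgeR (adjusted p 0.0609). Cluster-6671.17993 had 17.95, 15.25 and 16.55 FPKM in fertile and 23.6, 18.54 and 22.37 in sterile libraries and just missed it (0.22 ± 0.10, edgeR adjusted p 0.0635). It was called higher in 8 other settings, among them implied whole-library totals (0.36), and in edgeR without fertile replicate 1 (0.30) or sterile replicate 2 (0.29).

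The namesakes from embryo, fruit and tapetum were 3 clusters, and both tested ones were lower (all regulators: 28.9% lower). NAC056, which acts in the integuments and embryo of Arabidopsis, was named by 2 abundant clusters. Cluster-6671.10501 had 75.62, 80.09 and 78.0 FPKM in fertile and 73.92, 71.74 and 72.16 in sterile libraries, a narrow gap without overlap (log2 fold change -0.25 ± 0.06, edgeR adjusted p 0.00197). Its call was lost under implied whole-library totals (-0.11), under a fold minimum of 1.2 and in every limma fit (-0.10). Cluster-6671.9744, whose NR match was a NAC25 protein, had 50.59, 46.22 and 45.94 FPKM in fertile and 36.89, 32.01 and 35.82 in sterile libraries, all lower (-0.59 ± 0.07, edgeR adjusted p 2.76e-06). The cluster named after NAC025, the tapetum gene of Arabidopsis, was 459 bases long. Its NR match was a NAC2-like protein of sweet cherry and its NT match a NAC56-like transcript, so the name is uncertain. This cluster had counts of 1, 6 and 2 in fertile and 0, 0 and 3 in sterile libraries. With 9 against 3 counts it was not tested, and the ratio, 2.44-fold lower in the sterile clone, had a 95% interval from 0.609 to 14 that covers counting error only.

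**Figure D4:**
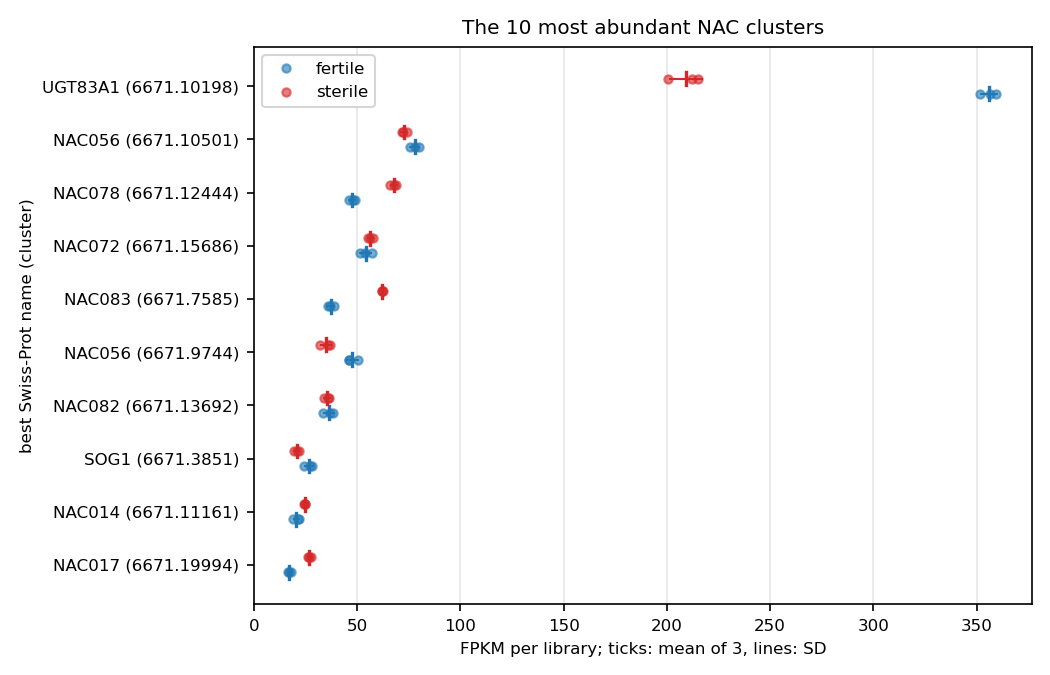
FPKM in each library (points), group means (ticks) and SD (lines, n = 3) for the 10 NAC clusters with the highest mean level. The UGT83A1 cluster stands apart from the rest at 356 FPKM in fertile and 209 in sterile buds, and NAC072 and NAC082 show overlapping groups.

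NAC090, which in Arabidopsis restrains salicylic acid accumulation and premature senescence, was the only cluster in the defence group and had the largest fall among the NAC clusters tested. It had 1.37, 1.19 and 1.18 FPKM in fertile and 0.28, 0 and 0.08 in sterile libraries, from counts of 23, 21 and 18 against 3, 0 and 1. No library overlapped, and the log2 fold change was -3.55 ± 0.61, or 11.7-fold lower, with an edgeR adjusted p of 9.2e-05. Without sterile replicate 1, which holds 3 of the 4 sterile counts, the fit gave -4.83, or 28.4-fold. Without sterile replicate 2 it gave -3.03, and limma on log2(FPKM + 1), which understates low clusters, gave a 2.02-fold lower level.

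In the remaining 15 clusters, 12 were tested, with 4 higher, 5 lower and 3 not called (all regulators: 28% higher, 28.9% lower). The cluster matching rice NAC022, a regulator of drought and salt tolerance in rice, had 4.79, 6.83 and 5.8 FPKM in fertile and 1.19, 1.35 and 1.51 in sterile libraries. It was 4.75-fold lower with groups far apart (log2 fold change -2.25 ± 0.19, edgeR adjusted p 2.22e-08). A cluster without a Swiss-Prot match, Cluster-3983.0, whose NR match was a peach NAC89 protein, had 1.58, 1.21 and 0.78 FPKM in fertile and 0.08, 0.59 and 0.32 in sterile libraries (-1.96 ± 0.45, edgeR adjusted p 0.0022). Its fold of 3.89 became 6.35 without sterile replicate 2. NAC071, which in Arabidopsis helps cut stems to rejoin, was named by Cluster-6671.20807, with 0.81, 0.66 and 0.56 FPKM in fertile and 2.31, 3.24 and 2.21 in sterile libraries. Every sterile library was higher, by 3.41-fold in the fit (1.77 ± 0.24, edgeR adjusted p 7.17e-06), and the second NAC071 cluster was not called (0.20 ± 0.13).

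NAC074 was the name with the most clusters, 5, all with a rice protein as match, and gave 1 higher, 2 lower and 2 not called. Their Prunus matches in NR and NT carried different names, among them NAC89, NAC19 and NAC101 types, so they need not be copies of 1 gene. Cluster-6671.3484 had 1.78, 2.03 and 2.47 FPKM in fertile and 1.01, 0.87 and 0.93 in sterile libraries and was lower without overlap (log2 fold change -1.30 ± 0.23, edgeR adjusted p 9.9e-05). The other lower one, Cluster-6671.16468 (-0.36 ± 0.09), lost its call in limma and under a fold minimum of 1.2. Cluster-6671.1776 was higher, at 2.57 ± 0.0600 against 1.41 ± 0.172 FPKM (SD, n = 3; 0.71 ± 0.15, edgeR adjusted p 0.000513). NAC002, NAC074, NAC082, NTL9 and SOG1 were the 5 names of the 18 shared ones that had clusters called in both directions. NAC002 here pools rice and Arabidopsis matches, whose numbers differ. The only lower NAC082 call was lost in 9 other settings, and the only lower call of an Arabidopsis-type NAC002 cluster in 8.

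The 3 clusters with another kind of protein as best match all passed the test. The UGT83A1 cluster, the most abundant member, had 351.7, 356.44 and 359.38 FPKM in fertile and 215.0, 200.6 and 212.07 in sterile libraries. It was 1.88-fold lower in the sterile clone, with no overlap (log2 fold change -0.91 ± 0.05, edgeR adjusted p 1.85e-11). Its NR and NT matches were also UGT83A1 types. The GLCAT14A cluster, whose NT match was a NAC105-like transcript, had 7.58, 7.36 and 7.0 FPKM in fertile and 25.07, 24.12 and 25.07 in sterile libraries, a 3.07-fold higher level (1.62 ± 0.07, edgeR adjusted p 1.28e-12). The KTI12 cluster had 10.22, 10.09 and 10.02 FPKM in fertile and 17.12, 17.21 and 17.38 in sterile libraries (0.63 ± 0.06, edgeR adjusted p 1.62e-07). Its NR match was a COBW domain protein and its NT match a KTI12 transcript. These clusters were 4364, 3988 and 5354 bases long, and which part of each drew the reads was not tested. Without them, 60 NAC clusters were tested, of which 22 were higher, 16 lower and 22 not called.

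The summed level over the 74 clusters was slightly lower in the sterile libraries, but this direction rested on the UGT83A1 cluster. Summed FPKM over the 74 clusters was 1024.13, 1035.22 and 1035.58 in fertile and 1024.05, 988.27 and 1017.88 in sterile libraries. The sterile libraries all lay below the fertile ones, by 21.6 FPKM in the mean (1010 ± 19.1 against 1032 ± 6.51, SD, n = 3), and the exact two-sided permutation p was 0.1, the smallest that 3 against 3 allows. With FPKM rescaled by median ratios of the whole table the difference was -79.6 FPKM (976 against 1056), with the same p. The UGT83A1 cluster alone made up 34.3% to 34.7% of the sum in fertile and 20.3% to 21.0% in sterile libraries. Without it the direction turned, to 801 ± 11.5 FPKM in sterile against 676 ± 3.19 in fertile buds, 125 higher or 1.19-fold, again with an exact permutation p of 0.1. Without all 3 clusters matching another protein the sums were 759 FPKM in sterile against 658 in fertile buds. The most abundant 10 clusters held 69.5% to 70.0% of the sum in fertile and 60.1% to 60.7% in sterile libraries.

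The 11 clusters below the low-count filter had 6 to 64 counts over the 6 libraries and means of 0.34 to 2.84 FPKM. When edgeR was run without the filter, 4 of them were called higher and 2 lower, where 53.5% of all regulators were called. JUB1, an Arabidopsis regulator of longevity and hydrogen peroxide responses, had counts of 8, 4 and 3 in fertile and 0 in all sterile libraries. With the sterile group set to a floor of 3 counts it was 4.07-fold lower, a value that leaves out the counting error of the fertile counts. Without the filter JUB1 was called lower (edgeR adjusted p 0.0139). A NAC007 cluster had counts of 3, 3 and 0 in sterile and 0 in all fertile libraries, a ratio of 2.46 against the same floor. Sterile replicate 3 thus matched the fertile libraries, and without the filter this cluster was not called (edgeR adjusted p 0.0898). Of the unnamed clusters, Cluster-5706.0 had 18 sterile against 2 fertile counts, a ratio of 11.1 (95% interval 2.65 to 98.3), and Cluster-9602.0 had 19 against 2, a ratio of 11.7 (2.82 to 103.4). NAC087 (Cluster-10482.0) had counts of 2, 4 and 0 in fertile and 10, 8 and 14 in sterile libraries, and NAC100 (Cluster-9982.0) had 4, 5 and 4 against 8, 10 and 14. NAC086 (4, 10 and 9 against 9, 2 and 10) and NAC101 (7, 5 and 9 against 5, 7 and 6) overlapped between clones. The unnamed Cluster-4611.0 (3, 4 and 4 against 9, 4 and 6) had 0.42 to 0.62 FPKM in fertile and 0.78 to 2.04 in sterile libraries. Its FPKM did not overlap, and without the filter it was not called (edgeR adjusted p 0.202).

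**Figure D5:**
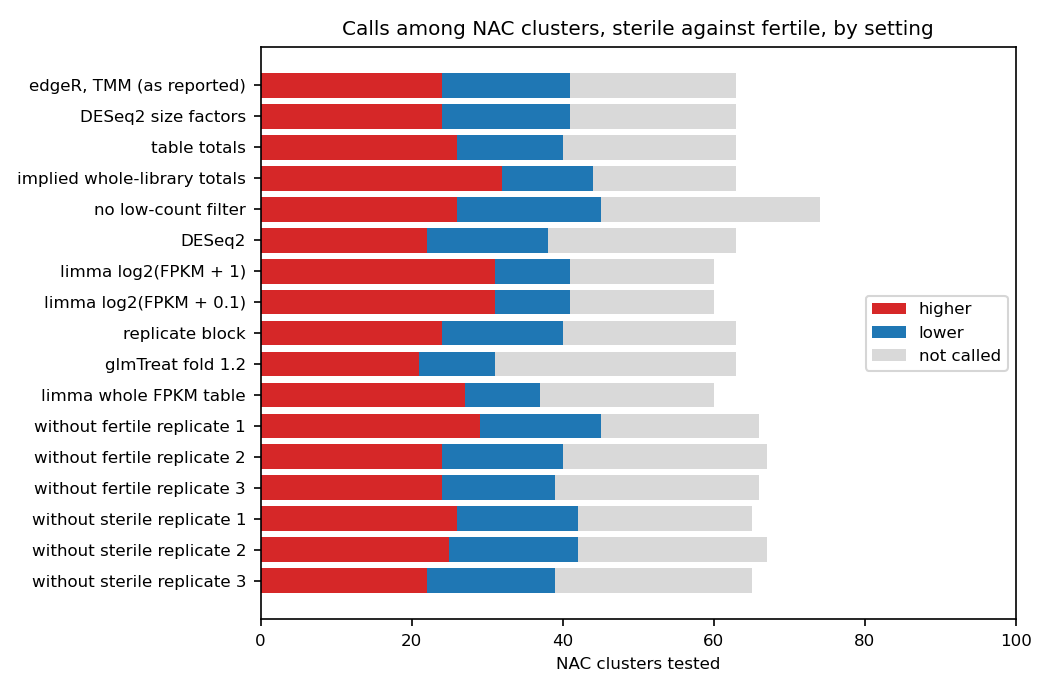
Number of NAC clusters tested (x axis) that were higher, lower or not called in the sterile clone, under the reported fit and each other setting. The reported fit gave 24 higher and 17 lower; limma on FPKM and the implied whole-library totals gave more higher and fewer lower calls, 31 and 10 for limma on log2(FPKM + 1) and 32 and 12 for the totals.

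Regulators known to work with NAC proteins in Arabidopsis were read from the same fit. Of 11 clusters of the secondary wall network (7 of 16 names matched), which includes the NAC043 clusters, 8 were tested: 1 was higher, 3 were lower and 4 were not called, beside the same 28% and 28.9% of regulators. The higher one was MYB20, an activator of lignin synthesis, at 47.8 ± 4.15 against 2.21 ± 0.189 FPKM (SD, n = 3; log2 fold change 4.28 ± 0.09). The lower ones were NAC043, the endothecium wall regulator NST1, at 1.74 ± 0.359 against 6.56 ± 0.680 FPKM (-2.07 ± 0.17), MYB26, which acts above it in anther dehiscence (-0.95 ± 0.08), and MYB86 (-0.65 ± 0.14). The median of this list was -0.58.

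Among 15 tested clusters of regulators upstream of stress and senescence NAC genes (11 of 19 names matched), 6 were higher, 8 lower and 1 not called, with a median of -0.58, beside 28% higher and 28.9% lower over all regulators. All 3 clusters of WRKY70, a defence and senescence regulator, were lower (log2 fold changes -5.15, -3.75 and -2.64), as were the jasmonate regulators MYC2 (-1.19) and MYC4 (-1.37). The ethylene regulator EIN3 was higher in both clusters (0.17 and 0.30), as were the abscisic acid factors ABI5 (0.93) and ABF2 (0.25), all by edgeR.

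In the authors' deposited table, 9 NAC clusters are marked as up and 7 as down in the sterile comparison, the smallest absolute log2 fold change among them being 1.19. Of these, 6 marked up were called higher here and 6 marked down were called lower, which are the 12 clusters with at least a 2-fold change, and 3 marked up and 1 marked down were below the low-count filter. A further 24 NAC clusters had a q-value under 0.05 in the authors' deposited table without being marked.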

How the data were processed

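RNA-seq libraries of 3 sterile and 3 fertile flower bud samples were analysed. The submitters' processing notes name Bowtie2, CASAVA and RSEM. Their versions, the assembler, the genome build and the read filters are not stated in the labels or headers. The authors deposited estimated counts per cluster for 1625 entries of 1508 regulator clusters, per the file headers, and FPKM values for these and for 34377 clusters in all. A log2 fold change, a q-value and an up or down mark of the authors' own comparison were also deposited, per the file headers. Cluster length and annotation matches stand in the same table.

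Groups came from the sample titles. Estimated counts were rounded and tested with edgeR 4.0.16 in R 4.3.3 over all regulator clusters, sterile against fertile: filterByExpr, TMM scaling within the regulator table, glmQLFit (robust) and glmQLFTest, with Benjamini-Hochberg adjustment at 0.05. The filter left 1380 clusters. The fit's common biological coefficient of variation was 6.82%. Standard errors came from each F statistic and its fold change. Whole-library totals implied by the ratio of counts to FPKM and length were 22.1 to 25.3 M fragments for fertile and 16.2 to 19.0 M for sterile libraries. Count-ratio intervals (exact binomial, Clopper-Pearson, 95%) cover counting error only. A floor of 3 counts stands in for an empty group and does not cover the counting error of the other group. The procedure was tested on simulated data.

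Roles were assigned from the Swiss-Prot name of an Arabidopsis match, since rice numbers differ, apart from rice NAC002 (SNAC1). The members and lists were chosen with earlier results of these data known. Values per library are given for clusters with at least 2-fold change, the 10 most abundant, the 3 most abundant of each role and the largest below the filter, 34 by this rule. Others were named to complete each role list. Alternatives were DESeq2 1.42.0 and its size factors, table and implied totals, no filter, a fold minimum of 1.2 (glmTreat), a replicate block, each library left out, and limma 3.58.1 on log2(FPKM + 1) or log2(FPKM + 0.1) for clusters with at least 1 FPKM in 3 libraries.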

Additional observations from a re-analysis of the deposited data

How the results depend on the processing

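NAC counts moved by over 1.5 times only for lower calls, to 10 under limma on log2(FPKM + 1) and log2(FPKM + 0.1), under a fold minimum of 1.2 and under limma on the whole FPKM table, an alternative chosen after seeing the data. Regulator calls went from 786 to 490 (231 higher, 259 lower) under the fold minimum. Leaving out each library gave 39 to 45 NAC calls (22 to 29 higher, 15 to 17 lower), 703 to 906 regulator calls (318 to 455 higher, 351 to 451 lower) and a difference in summed FPKM of -28.6 to -10.7. That difference reversed to 125 without the most abundant cluster and, in alternatives also chosen after seeing the data, to 100.5 without the clusters matching another protein and to 82.3 without the most abundant cluster after rescaling. NAC072 (Cluster-6671.15686), never called, reversed to 0.046 under implied totals and to 0.060, 0.061 and 0.060 in the 3 limma fits, and NAC037 ranged from -0.055 to 0.26 as libraries were left out, reversing without sterile replicates 1 and 3. The cause was not tested. The calls lost in at least 1 setting were those of 10 clusters: NAC056 (Cluster-6671.10501), both NAC082 clusters with small changes, NAC032 (Cluster-6671.299), both Arabidopsis-type NAC002 clusters, NAC021 (Cluster-7253.0), NAC074 (Cluster-6671.16468), NTL9 (Cluster-6671.17067) and NAC047. Of the 22 clusters not called, 10 gained a call in at least 1 setting, 9 of them only as higher and 1, NAC100 (Cluster-3126.0), as lower. Deviations of same-numbered libraries correlated at 0.0164, 0.0267 and 0.00892, so no shared replicate effect was seen. Such values cannot decide whether same-numbered samples were collected or prepared together. With a replicate block 24 NAC clusters were higher and 16 lower. Depth limits the clusters under 1 FPKM: 16 of the 74 had such a mean.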
